A study of Mus musculus with 4 samples.

Results

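HOX genes encode homeodomain transcription factors that pattern the head-to-tail axis of the embryo and, in the limb, its proximal-to-distal axis. In the mouse they lie in 4 clusters, named a to d, and are numbered within each cluster so that genes of the same number in different clusters are paralogs. Low numbers mark the anterior end of a cluster and high numbers the posterior end. In the hindlimb, paralogs numbered 10 are known for patterning the thigh, those numbered 11 for the shank with the tibia, and those numbered 13 for the foot. The neural crest that forms the facial skeleton and the frontal bone is known to develop without HOX expression. The HOX genes described here are the 38 rows chosen by symbol from 23946 gene symbols: 10 in Hoxa, 10 in Hoxb, 9 in Hoxc, and 9 in Hoxd.

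RNA was measured in CD51+;CD200+ cells, skeletal stem/progenitor cells sorted by FACS on the surface integrin CD51 and the glycoprotein CD200, from wild type CD-1 mice at postnatal day 3. Cells came from 3 cranial sutures, namely the posterior frontal suture (PF), the sagittal suture (SAG), and the coronal suture (COR), and from the tibial growth plate (GP). Each tissue gave 1 library of cells pooled from several mice, so there is no replicate error and no test between tissues. By the study's methods the suture samples were dissected with the osteogenic fronts, the underlying dura mater, and the overlying periosteum, and the gate took cells without blood (CD45, Ter119), endothelial (Tie2), or Thy1, CD105, and 6C3 surface antigens. Values are FPKM, fragment counts scaled for transcript length and for the size of the library, so levels can be set side by side between genes of a library. Between libraries, levels also depend on how the libraries were scaled. FPKM over all genes summed to 447174 in SAG and 550958 in PF, with COR and GP between. The comparison asks how a group of positional genes differed between limb and skull cells that were sorted by the same gate.

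The sample title of GP gives a growth plate, and the study names the tibial growth plate as its reference. Hindlimb origin was checked with *Pitx1* and *Tbx4*, transcription factors of hindlimb identity. *Pitx1* was at 83.7 FPKM and *Tbx4* at 21.7 FPKM in GP, while both were below 1 FPKM in every suture. *Tbx5*, the forelimb counterpart of *Tbx4*, was at 0.159 FPKM in GP. *Itgav*, the gene of CD51, was at 6.20 to 15.0 FPKM and *Cd200* at 23.5 to 62.6 FPKM over the 4 libraries. Of the antigens gated out, *Enpep*, the gene of 6C3, was nevertheless at 1.39 FPKM in GP and 2.74 to 7.05 in the sutures, and *Eng*, the gene of CD105, was at 0.679 to 1.70 FPKM, while *Ptprc*, *Tek*, and *Thy1* were below 1 in each library. The libraries listed 11402 to 12263 genes at 1 FPKM or more. Depth is not given with the values, but the spacing of low FPKM values times transcript length put PF at 44.1%, COR at 89.3%, and GP at 82.7% of the fragments of SAG. PF was therefore the shallowest library by this estimate. Genes listed at 0 numbered 8287 in COR, 7516 in PF, 7368 in GP, and 6768 in SAG, an order that differs from that of the estimate. *Col1a1*, an abundant collagen gene, is listed at 0 in COR and was at 4894 FPKM in PF, so a listed 0 cannot be read as absence of the transcript.

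The promoters of *Hoxa10* and *Hoxa11*, the members with the highest and the second highest FPKM in GP, and of *Hoxd13*, which is listed at 0 in every library, are shown to set a pair of genes with high GP values beside a gene listed at 0. They are 300 bases from 250 before to 50 after a transcription start, 5′ to 3′, from RefSeq (GRCm38.p6), and each matched the mm9 genome exactly at 1 place. Capitals mark 3 motifs on either strand: the TATA box TATAAA, the box CCAAT, and the core TGATNNAT, recognised by HOX proteins together with PBX. Where TATAAA on both strands overlaps, the capitals run together.
Hoxa10, upstream start, mm9 chr6:52190804-52191103, minus strand: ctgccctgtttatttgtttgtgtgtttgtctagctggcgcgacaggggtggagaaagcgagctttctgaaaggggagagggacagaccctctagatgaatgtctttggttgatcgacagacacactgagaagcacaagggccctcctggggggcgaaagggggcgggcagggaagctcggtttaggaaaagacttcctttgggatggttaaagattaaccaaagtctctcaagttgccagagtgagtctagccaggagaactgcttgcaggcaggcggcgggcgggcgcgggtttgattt
Hoxa10, downstream start, mm9 chr6:52184889-52185188, minus strand: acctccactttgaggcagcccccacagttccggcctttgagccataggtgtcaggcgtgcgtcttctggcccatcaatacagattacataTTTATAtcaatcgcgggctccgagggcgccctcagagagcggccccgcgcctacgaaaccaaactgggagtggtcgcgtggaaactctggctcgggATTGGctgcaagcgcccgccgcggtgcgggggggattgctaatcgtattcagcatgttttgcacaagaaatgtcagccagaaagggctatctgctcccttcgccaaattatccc
Hoxa11, mm9 chr6:52195760-52196059, minus strand: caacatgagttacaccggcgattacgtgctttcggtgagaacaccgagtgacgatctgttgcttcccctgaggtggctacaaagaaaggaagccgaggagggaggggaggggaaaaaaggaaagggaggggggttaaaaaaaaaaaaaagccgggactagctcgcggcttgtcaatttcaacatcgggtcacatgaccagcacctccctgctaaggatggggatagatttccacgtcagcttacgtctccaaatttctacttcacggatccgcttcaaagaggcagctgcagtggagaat
Hoxd13, mm9 chr2:74506032-74506331, plus strand: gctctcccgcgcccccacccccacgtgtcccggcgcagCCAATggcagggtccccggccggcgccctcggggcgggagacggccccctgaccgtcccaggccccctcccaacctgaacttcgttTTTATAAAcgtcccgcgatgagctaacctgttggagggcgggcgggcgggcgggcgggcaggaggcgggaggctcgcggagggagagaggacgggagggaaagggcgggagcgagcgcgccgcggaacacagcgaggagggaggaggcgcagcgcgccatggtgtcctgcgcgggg

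Both *Hoxd13* and the downstream *Hoxa10* start held TATAAA and CCAAT, and the upstream *Hoxa10* start and *Hoxa11* held none of the 3 motifs in these windows. GC content was 74.3% for *Hoxd13*, 54.3% and 57.3% for the upstream and downstream *Hoxa10* starts, and 51.0% for *Hoxa11*. RefSeq promoters were matched for 22 of the 38 members, with 24 starts. TATAAA was found in 4 of these 24, or 16.7%, beside 13.6% of all 32851 promoters of the same length. CCAAT was found in 15 of 24, or 62.5%, beside 37.4% of all promoters, and TGATNNAT in 4 of 24, or 16.7%, beside 8.85%. The ratio of observed to expected CG pairs had a median of 0.626 over the member promoters and 0.384 over all promoters. These are descriptions of sequence, not of bound sites.

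HOX transcripts were most abundant in GP-CD51+;CD200+ cells. In GP, 15 of the 38 members were at 1 FPKM or more, 16 were above 0 and below 1, and 7 are listed at 0. In PF, 2 members were at 1 FPKM or more, and in SAG and COR 0 were. The members summed to 186.7 FPKM in GP and to 4.16 in PF, and came to 0.673 in SAG and 0.772 in COR. The GP sum was thus 44.9 times that of PF, 277 times that of SAG, and 242 times that of COR. The PF sum rested mostly on *Hoxc12* and *Hoxd8*, and without this pair, chosen after their values were seen, the GP sum was 136 times that of PF. With quantile normalization the GP sum was 533 times that of SAG and 124 times that of COR, so the multiples for these libraries depend on the scaling. In contrast, the share of all genes at 1 FPKM or more differed little between the libraries, at 49.2% in GP, 49.4% in PF, 51.2% in SAG, and 47.6% in COR.

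**Figure D1:**
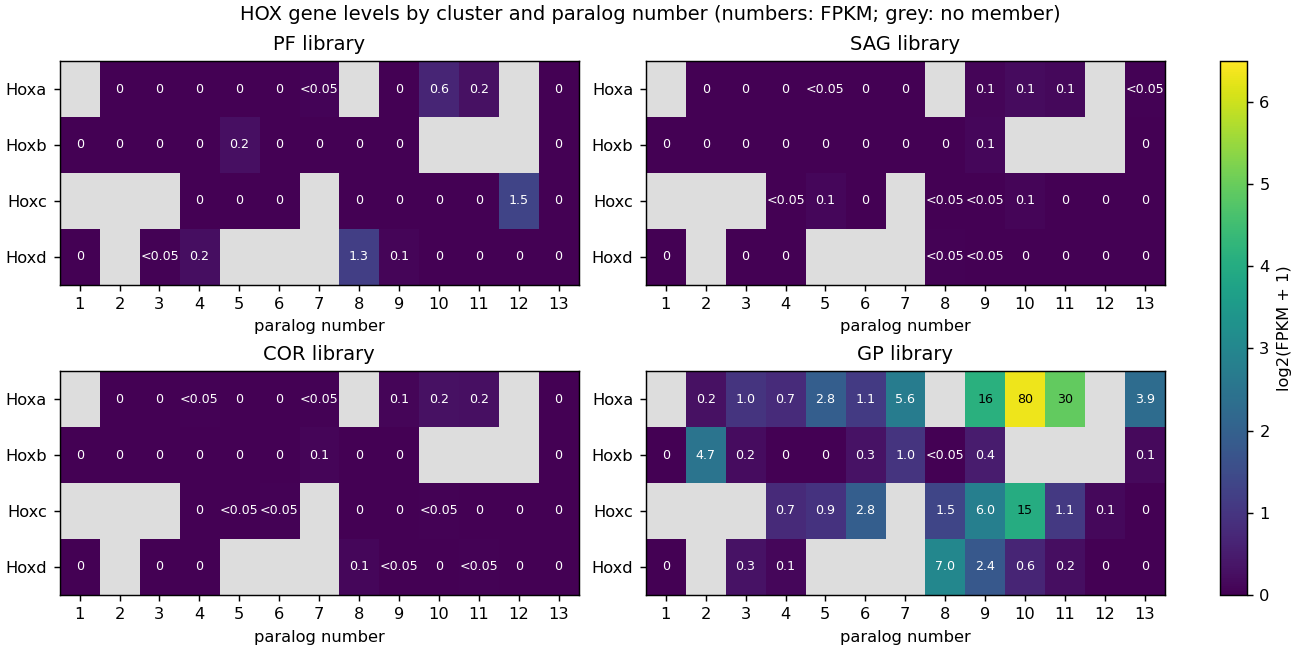
Level of each HOX gene in the PF, SAG, COR, and GP libraries, with the cluster on the vertical axis, the paralog number on the horizontal axis, the colour giving log2(FPKM + 1), and the printed numbers giving FPKM. In the GP panel the 5 brightest cells are *Hoxa10*, *Hoxa11*, *Hoxa9*, *Hoxc10*, and *Hoxd8*, whereas the suture panels reach 1 FPKM only at *Hoxc12* and *Hoxd8* in PF.

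Of the 38 members, 29 had their highest value in GP and 3 in PF, and 6 are listed at 0 in all 4 libraries. The 3 highest in PF were *Hoxb5*, *Hoxc12*, and *Hoxd4*. The 6 listed at 0 throughout were *Hoxb1*, *Hoxb4*, *Hoxc13*, *Hoxd1*, *Hoxd12*, and *Hoxd13*. *Hoxb5* is the other member listed at 0 in GP. For a gene with 1 annotated transcript, the estimated depth gives the FPKM that 3 fragments would be worth in a library. In GP this was 0.0378 FPKM for *Hoxd13* and 0.0503 FPKM for *Hoxd1*, so a level below about these values could not be told from 0. These values are not upper limits for a gene listed at 0, given the listed 0 of *Col1a1* in COR.

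*Hoxa10*, a gene of proximal hindlimb patterning (mm9 chromosome 6, 52181196 to 52190853), was at 79.6 FPKM in GP, 0.594 in PF, 0.145 in SAG, and 0.226 in COR. This gene held 42.6% of the summed HOX FPKM of GP and ranked at place 1232 of the 23946 symbols of that library. *Hoxa11*, known for the patterning of the tibia and fibula (chromosome 6, 52192107 to 52196213), was at 29.6 FPKM in GP, 0.214 in PF, 0.107 in SAG, and 0.199 in COR. Both genes were the highest HOX genes of SAG and COR as well, at levels below 1 FPKM. The GP value minus that of the highest suture was 5.66 for *Hoxa10* and 4.65 for *Hoxa11* in log2(FPKM + 1). The added 1 makes ratios of low values look smaller than they are.

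*Hoxa9* (chromosome 6, 52173099 to 52181088) was at 16.4 FPKM in GP, 0.0610 in SAG, and 0.0625 in COR, and is listed at 0 in PF. *Hoxc10*, the paralog of *Hoxa10* in the Hoxc cluster (chromosome 15, 102797227 to 102802324), was at 15.3 FPKM in GP, 0.0676 in SAG, and 0.0317 in COR, and is listed at 0 in PF. The log2(FPKM + 1) difference from the highest suture was 4.03 for *Hoxa9* and 3.93 for *Hoxc10*. For *Hoxc10*, which has 1 annotated transcript, the values came to an estimated 931.5 fragments in GP, 5.0 in SAG, and 2.1 in COR. *Hoxa9* to *Hoxa11* and *Hoxc10* together held 75.4% of the summed HOX FPKM of GP.

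*Hoxd8* (chromosome 2, 74542672 to 74545990) was at 6.99 FPKM in GP, 1.32 in PF, 0.0335 in SAG, and 0.0746 in COR. It was the single gene among the 15 members at 1 FPKM or more in GP that also reached 1 FPKM in a suture. Its log2(FPKM + 1) difference from PF, the highest suture, was 1.79. *Hoxc9* (chromosome 15, 102806870 to 102815530) was at 6.01 FPKM in GP and 0.0165 in SAG, with a listed 0 in both PF and COR. *Hoxa7* (chromosome 6, 52164490 to 52171853) was at 5.62 FPKM in GP, 0.0363 in PF, and 0.0352 in COR, and is listed at 0 in SAG.

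The members between 1 and 5 FPKM in GP were *Hoxb2* at 4.68, *Hoxa13* at 3.92, *Hoxc6* at 2.83, *Hoxa5* at 2.81, *Hoxd9* at 2.44, *Hoxc8* at 1.55, *Hoxa6* at 1.15, and *Hoxc11* at 1.12. In the sutures each of these 8 was below 0.1 FPKM in every library. Of these, *Hoxa13* is known for patterning the foot, and *Hoxa5*, *Hoxc6*, and *Hoxc8* for patterning the neck and thorax. *Hoxb2*, a gene best known from hindbrain patterning (chromosome 11, 96212946 to 96217003), is listed at 0 in all 3 sutures, and its GP value came to an estimated 495 fragments. Each of the other 9 Hoxb genes was below 1 FPKM in GP.

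The 16 members above 0 and below 1 FPKM in GP ranged from 0.0133 for *Hoxb8* to 0.982 for *Hoxb7*. The highest after *Hoxb7* were *Hoxa3* at 0.968, *Hoxc5* at 0.942, *Hoxa4* at 0.731, *Hoxc4* at 0.697, and *Hoxd10* at 0.583. Most of the 16 have anterior or central numbers. For *Hoxc5*, with 1 annotated transcript, the GP value came to an estimated 88.1 fragments, against 8.6 in SAG and 1.1 in COR. *Hoxd10* came to 49.5 fragments in GP and *Hoxa2* to 17.1, and both are listed at 0 in all 3 sutures. Among the 16, *Hoxc12* and *Hoxd4* were higher in PF than in GP, *Hoxd4* at 0.177 FPKM in PF and 0.0880 in GP.

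A member was counted as higher in GP when its FPKM plus 1 was at least 3-fold that of the highest suture. By this rule 12 of the 38 members were higher in GP: *Hoxa5*, *Hoxa7*, *Hoxa9*, *Hoxa10*, *Hoxa11*, *Hoxa13*, *Hoxb2*, *Hoxc6*, *Hoxc9*, *Hoxc10*, *Hoxd8*, and *Hoxd9*. Over every row of the tables the share was 0.572%, or 137 of 23946 genes, and over the 13998 genes at 1 FPKM or more in at least 1 library it was 0.979%. Only 16 members reached 1 FPKM in any library, and 14 of them did so through GP alone, so their number is not support for the difference. Over all 38 members the median of GP minus the highest suture was 0.75 on the log2(FPKM + 1) scale, beside -0.18 over all 23946 genes. Genes were also ranked by this difference among the 13998 at 1 FPKM or more in a library, of which 16 were members. Of the first 100 genes 10 were HOX members. Of the first 20 genes 4 were, with *Hoxa10* at place 3, *Hoxa11* at place 10, *Hoxa9* at place 18, and *Hoxc10* at place 19. Most members entered this ranking through GP alone, so these counts are a description.

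Since the count was against the highest suture, the same 12 members were by definition also at least 3-fold higher in GP than in each suture taken alone. No other member was counted against a single suture. The 3 comparisons share the GP library. Among all genes at 1 FPKM or more in a library compared, the share at least 3-fold higher in GP was 6.24% against PF, 3.86% against SAG, and 3.20% against COR. No member could be counted as 3-fold lower in GP, since the highest suture value, 1.52 FPKM for *Hoxc12* in PF, is too low for this with 1 added. *Hoxc12* passed 3-fold lower than in PF when 0.1 was added in place of 1. Over all genes compared, 749 of 13101 were 3-fold lower in GP than in PF. Against SAG it was 621 of 12929, and against COR 146 of 12209. Of the 15 members at 1 FPKM or more in GP, 14 were below 1 FPKM in every suture, and of all 11789 genes at that level in GP the share was 2.25%. These members were taken by their high GP level, so the count is a description. For *Hoxd9*, the member nearest to the 3-fold threshold of 1.58, the difference was 1.69, and the next below was *Hoxc8* at 1.33.

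**Figure D2:**
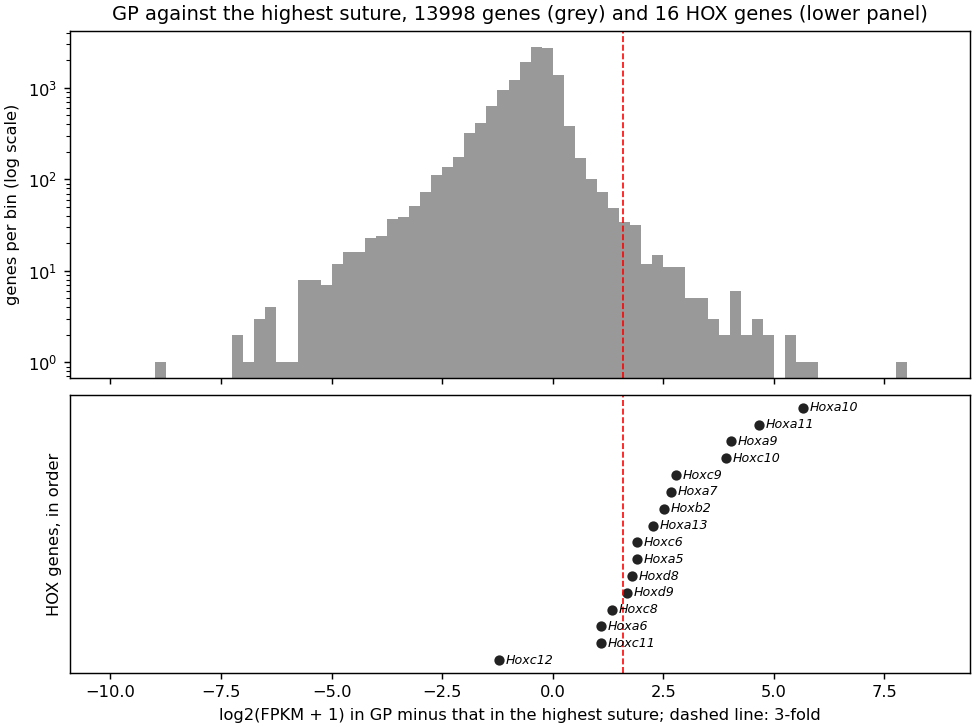
Difference of log2(FPKM + 1) between GP and the highest suture, as a histogram of 13998 genes in the upper panel with a logarithmic count axis, and for the 16 HOX genes at 1 FPKM or more in any library, each as a point, in the lower panel. The dashed line marks 3-fold, and 12 HOX genes lie to its right, up to *Hoxa10* at 5.66, with *Hoxc12* at -1.21 on the left.

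By paralog number, GP expression was concentrated at 9 to 11. The 3 genes numbered 10 held 51.1% of the summed HOX FPKM of GP, at 95.4 FPKM, the 3 numbered 11 held 16.5%, at 30.9 FPKM, and the 4 numbered 9 held 13.5%, at 25.3 FPKM. The 4 genes numbered 13 came to 4.04 FPKM, of which *Hoxa13* was 3.92, and the pair numbered 12 to 0.0920. Anterior genes (1 to 3) held 3.37% of the sum, central genes (4 to 8) 13.2%, and posterior genes (9 to 13) 83.4%. The paralogs of a number were unequal in level. *Hoxa11* was at 29.6 FPKM in GP, whereas *Hoxc11* was at 1.12 and *Hoxd11* at 0.190, and *Hoxd10* was at 0.583 beside 79.6 for *Hoxa10*.

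**Figure D3:**
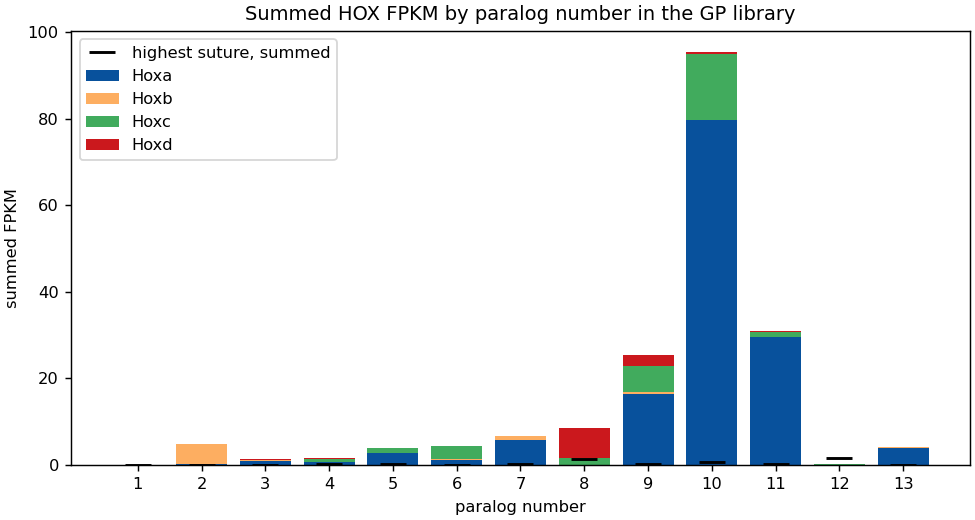
Summed FPKM of the HOX genes of each paralog number in the GP library, stacked by cluster, with a black dash for the suture with the highest sum at that number. The bar at 10 reaches 95.4 FPKM, mostly from Hoxa, and only at 12 does the dash, 1.52 FPKM from PF, lie above the bar.

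By cluster, the 10 Hoxa genes came to 141 FPKM in GP, 75.5% of the sum, and all 10 were above 0. The 9 Hoxc genes came to 28.5 FPKM, the 9 Hoxd genes to 10.5, and the 10 Hoxb genes to 6.62. At 1 FPKM or more were 7 Hoxa, 5 Hoxc, 2 Hoxd, and 1 Hoxb genes. The highest member stood at number 10 in Hoxa and Hoxc, at number 8 in Hoxd, and at number 2 in Hoxb. In Hoxd the values in GP went from 6.99 for *Hoxd8* to 2.44 for *Hoxd9*, 0.583 for *Hoxd10*, and 0.190 for *Hoxd11*, with *Hoxd12* and *Hoxd13* listed at 0. In Hoxc they were 6.01 for *Hoxc9*, 15.3 for *Hoxc10*, 1.12 for *Hoxc11*, and 0.0920 for *Hoxc12*.

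In the sutures, 22 members were above 0 in at least 1 library and 16 are listed at 0 in all 3. *Hoxa10*, *Hoxa11*, *Hoxd8*, and *Hoxd9* were the 4 members above 0 in all 3 sutures, and each was also at 2.44 FPKM or more in GP. The *Hoxd9* values came to an estimated 2.6 fragments in PF, 1.1 in SAG, and 1.3 in COR, below the 3 fragments used above. Other values above 0 also rest on about 1 fragment, such as *Hoxa5* in SAG, at 1.1. Such values cannot be told from 0. In PF, *Hoxc12* was at 1.52 FPKM, while it is listed at 0 in SAG and COR and was at 0.0920 in GP. With 1 annotated transcript, the PF value came to an estimated 26.8 fragments and the GP value to 3.0. The genes next to it in the cluster, *Hoxc11* and *Hoxc13*, are listed at 0 in PF, and so is each Hoxc gene other than *Hoxc12*. *Hoxb5* was at 0.209 FPKM in PF, an estimated 10 fragments, and is listed at 0 elsewhere.

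The highest HOX value in a suture, 1.52 FPKM for *Hoxc12* in PF, is too low for a 3-fold difference once 1 is added. No member could therefore be counted as apart between sutures, and the count of 0 carries no information. Among all genes compared, where higher values occur, the share was 15.7% between PF and SAG, 11.7% between PF and COR, and 9.25% between COR and SAG. Only 2 members were compared between PF and SAG, and 2 between PF and COR. *Hoxc12* and *Hoxd8*, the members at 1 FPKM or more in a suture, both passed 3-fold in PF against SAG and against COR when 0.1 was added in place of 1. Between COR and SAG no member reached 1 FPKM in either library. The highest member of both was *Hoxa10*.

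Blood cells and neural cells of the hindbrain and spinal cord are known to express HOX genes, so their markers were set beside the suture values. Over 9 blood genes the summed FPKM was 91.0 in PF and 33.8 to 47.0 in the other libraries, and 3 or 4 of the genes were at 1 FPKM or more in each. PF thus had the highest blood sum of the 4 and the highest HOX sum of the 3 sutures. The PF sum came mostly from *Cd34*, also expressed outside blood, at 44.6 FPKM, the myeloid gene *Lyz2* at 30.2, and the hemoglobin gene *Hba-a1* at 9.40. *Ptprc*, the gene of CD45, was at 0.568 FPKM in PF and at 0.0574 or less elsewhere. *Itgam*, a myeloid gene, was at 0.0356 FPKM in PF and is listed at 0 elsewhere. Both *Kit* and *Csf1r* were lowest in PF, with *Kit* at 0.0439 FPKM there and 11.7 in SAG, and *Csf1r*, a macrophage receptor gene, at 0.0593 in PF and 0.797 in COR. Over 5 neuron genes the sum was highest in COR, at 10.3 FPKM, mostly from the tubulin gene *Tubb3*, while *Snap25* and *Syt1* were highest in SAG, at 2.21 and 1.80. PF had the lowest neuron sum, at 2.30. The sum of the choroid plexus genes (5) was highest in SAG, at 5362 FPKM against 93.2 to 484 elsewhere, mostly from *Ttr*, while *Enpp2* was highest in GP, at 83.0. Of the endothelial genes (4), with sums of 0.481 to 15.7 FPKM, *Kdr* was highest in SAG, at 14.9 FPKM, *Pecam1* and *Cdh5* in PF, at 0.295 and 1.68, and *Tie1* in GP, at 0.155. SAG had the lowest HOX sum. The muscle genes (5) came to 0.222 to 1.61 FPKM, with *Myod1* listed at 0 throughout. The chondrocyte genes (6) came to 2800 FPKM in GP and 3386 in SAG, beside 86.3 in PF and 86.5 in COR. The sums of the skeletal progenitor genes (5), 210 FPKM in COR and 5250 in GP, differed mainly through *Col1a1*, listed at 0 in COR. *Runx2* and *Twist1* were highest in COR, at 30.4 and 124 FPKM, *Prrx1* in GP, at 57.7, and *Sox9* in SAG, at 171. Whether RNA of other cells contributed to the HOX values was not tested. In bulk samples, fewer cells of a type and less RNA per cell cannot be told apart.

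Outside the HOX genes of the clusters, *Hoxa11os*, an RNA transcribed opposite to *Hoxa11*, was at 35.4 FPKM in GP, 0.323 in PF, 0.237 in SAG, and 0.136 in COR. As the library kit does not mark strand, reads of *Hoxa11* and of an RNA opposite to it cannot be told apart where they overlap. Of the 11 such transcripts with a row in the tables, out of 13 looked for, *Hoxa11os* alone reached 1 FPKM in a library. *Hotair*, a long noncoding RNA of the Hoxc cluster, was at 0.116 FPKM in GP. *Evx1* and *Evx2*, homeobox genes at the posterior ends of Hoxa and Hoxd, *Hottip*, and the microRNA genes *Mir10a*, *Mir10b*, *Mir196a-1*, *Mir196a-2*, *Mir196b*, and *Mir615* are listed at 0 throughout. Libraries of this kind do not capture mature microRNAs, so nothing is read from the last 6.

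The 24 coding genes nearest to the clusters, 3 on each side of each, did not share the pattern of the HOX genes as a group. Of the 20 at 1 FPKM or more in a library, 1 was at least 3-fold higher in GP than in every suture. Their median difference was -0.13 on the log2(FPKM + 1) scale. Over all 13998 genes compared the share was 0.979% and the median -0.42. The flanking gene counted as higher was *Skap2*, which encodes an adaptor protein. It lies on the anterior side of Hoxa (chromosome 6, 51809165 to 51962548), 149.8 kb from the nearest HOX gene measured here. *Skap2* was at 14.9 FPKM in GP and at 3.56 in PF, 3.35 in SAG, and 1.27 in COR. On the log2(FPKM + 1) scale it exceeded the highest suture by 1.80. *Skap1*, its paralog on the anterior side of Hoxb, was at 2.31 FPKM in GP, 0.509 in PF, 0.245 in SAG, and 0.374 in COR. For *Skap1* the same difference was 1.13. *Hibadh* beside Hoxa and *Mtx2* beside Hoxd, nuclear genes of mitochondrial proteins, were at 54.7 and 50.9 FPKM in GP. In every suture both were at 48.4 FPKM or more.

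**Figure D4:**
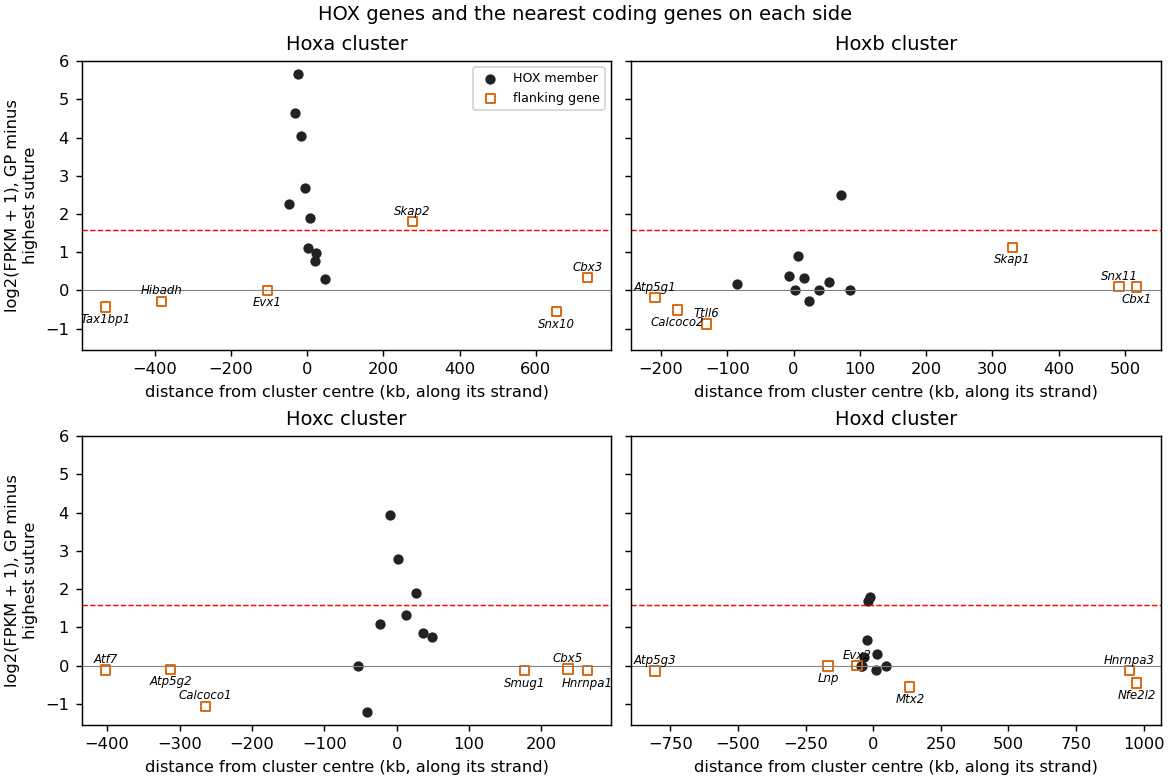
Difference of log2(FPKM + 1) between GP and the highest suture, on the vertical axis, for HOX genes (filled circles) and flanking coding genes (open squares) against their distance from the centre of each cluster in kb along its strand, posterior side on the left, with a dashed line at 3-fold. All genes are shown, whatever their level, and *Skap2* at 1.80 is the flanking gene above the line.

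HOX proteins bind DNA with cofactors of the TALE homeodomain class, which include the Meis, Pbx, and Pknox proteins. Of the 9 genes of this class measured, 7 were at 1 FPKM or more in GP, 7 in PF, 9 in SAG, and 8 in COR. None was 3-fold higher in GP than in every suture. The median difference of GP from the highest suture was -1.08 on the log2(FPKM + 1) scale, beside -0.42 over all 13998 genes compared. *Meis3* was at 12.3 FPKM in GP, 28.9 in PF, 14.6 in SAG, and 34.0 in COR. *Pknox1* was at 7.86 FPKM in GP and at 4.64 to 6.20 in the sutures, and *Pbx3* was at 7.55 in GP and at 3.71 to 9.49 in the sutures. *Pbx4* and *Pknox2* were 3-fold lower in GP than in the highest suture, which was SAG for both, at 3.76 and 9.28 FPKM beside 0.127 and 1.45 in GP. The 9 genes summed to 37.2 FPKM in GP and to 52.7 to 58.0 in the sutures, where the HOX sums were low.

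Among the known upstream regulators, *Cdx1*, *Cdx2*, and *Cdx4*, which activate posterior HOX genes in the embryo, are listed at 0 in every library. *Kmt2a*, a histone methyltransferase that maintains HOX expression, was at 1.63 FPKM in GP and from 2.0 to 2.5 in the sutures. *Men1*, the gene of its partner menin, was at 18.0 FPKM in GP, 33.7 in PF, 20.5 in SAG, and 25.1 in COR. Neither was 3-fold apart between any pair of libraries.

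Some HOX rows may share reads. By the mm9 annotation, the exons of 6 members overlap those of another member on the same strand: *Hoxa2* with *Hoxa3*, *Hoxb7* with *Hoxb8*, and *Hoxd3* with *Hoxd4*. None of the 12 members higher in GP is among them. Of the 50-base stretches of *Hoxd4* coding transcripts 42.2% occur in another gene, and of those of *Hoxb8* 37.4%, whereas *Hoxa10*, *Hoxa11*, *Hoxa9*, and *Hoxc10* share none. Exons of 7 members, with *Hoxa11*, *Hoxa7*, and *Hoxb2* among them, also lie opposite an antisense transcript.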

How the data were processed

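Libraries were prepared from sorted CD51+;CD200+ cells, 1 per tissue. Per the methods, alignment to mm9 was by STAR v2.5.1b, and the authors deposited FPKM per gene symbol from Cuffdiff (Cufflinks v2.2.1, Illumina iGenomes gene model). Their library normalization and the depth are not given in the sources used here. Members were matched by symbol. The members and gene lists were chosen with earlier results of these data known. All 38 members were named, together with TALE cofactors, upstream regulators, transcripts within the clusters, flanking genes, and markers of other cell types. Ratios were taken as log2(FPKM + 1) and counted at 3-fold or more, for genes that reached 1 FPKM in a library compared, and no test was made. Positions, exons, and transcript lengths were those of the GENCODE annotation of mm9. Estimated fragments are FPKM times transcript length in kb, divided by the step of low values over genes with 1 transcript. This takes FPKM as proportional to fragments, and the annotation may differ from the authors' gene model, so they are approximate. Alternatives were a pseudocount of 0.1, median-ratio scaling, quantile normalization, other floors and folds, and leaving out a suture. Python 3.11.15, numpy 2.4.6, pandas 2.3.3, and matplotlib 3.10.9 were used, and the steps were tested on simulated data. Protein sequences were not used here.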

Additional observations from a re-analysis of the deposited data

How the results depend on the processing

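The 12 members 3-fold higher in GP than in every suture were the same 12 with median-ratio scaling and with quantile normalization. The same 12 were counted without a floor, without PF, SAG, or COR, and, chosen after seeing the data, without members whose exons overlap. Leaving out the floor or a suture cannot lose a counted member, and none of the 12 has overlapping exons. These last settings could therefore not lower the count. The members counted were 15 with a pseudocount of 0.1 and 15 at 2-fold. With a floor of 5 FPKM 7 were counted, also against PF, SAG, and COR alone and as members at that level in GP, while 0 were at that level in PF. At 5-fold 7 were counted, and 7 against PF alone. Between PF and SAG and between PF and COR, 0 members were apart, as their values were too low for 3-fold with 1 added. With a pseudocount of 0.1 the count was 2, and at 2-fold it was 2. Without *Hoxc12*, chosen after its value was seen, 1 member was at 1 FPKM or more in PF. Without *Hoxc12* and *Hoxd8*, also chosen after their values were seen, the GP sum was 136 times that of PF, against 44.9. With quantile normalization it was 533 times that of SAG and 124 times that of COR, against 277 and 242; the cause was not tested. Posterior genes held 69.9% of the GP sum when counted from number 10. No paired analysis was possible because 1 library stood for each tissue, so that a property of a tissue and one of its library cannot be told apart. By the estimated depth, which was lowest in PF, low values in PF would rest on fewer fragments. The number of genes listed at 0 was nevertheless highest in COR.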
